A study of Mus musculus with 6 samples.

Results

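The 9 genes described here encode enzymes that build pyrimidine nucleotides from small precursors, recover them from free nucleosides, or supply the folate-borne carbon used to make thymidylate. They were chosen by name: Cad, Dhodh, Umps, Ctps and Ctps2 for de novo synthesis, Tyms and Shmt1 for thymidylate and the folate cycle, and Tk1 and Uck2 for salvage. All 9 were found among the 23284 gene symbols of the RNA-sequencing tables.

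RNA was measured in C1498-EGFP cells, a mouse acute myeloid leukemia (AML) line that had been transduced with a retrovirus for green fluorescent protein and grown from a single clone. The cells were injected intravenously into syngeneic C57BL/6J mice, female and 8 to 10 weeks old. On day 21 the bone marrow of femur, tibia and pelvis was collected, and GFP+ CD49b+ cells were sorted from 3 cytarabine-treated mice and from 3 control mice, with 1 library per mouse. The controls carried the same leukemia and are labelled both as PBS-treated and as untreated. For imaging, cytarabine was injected into the peritoneum on days 19 and 20, and the schedule is not stated separately for the mice that were sequenced. Libraries are named here by treatment and replicate number, as cytarabine 1 to 3 and control 1 to 3. The line passed through culture as 1 clone, so the mice are replicates of the host and the treatment, not of the leukemia.

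Pyrimidine nucleotides are precursors of both RNA and DNA. In the de novo route, Cad carries out the opening reactions on one large protein, Dhodh oxidizes dihydroorotate at the inner mitochondrial membrane, Umps makes uridine monophosphate, and the CTP synthases Ctps and Ctps2 convert UTP to CTP. Tyms then methylates dUMP to dTMP with a carbon unit that serine hydroxymethyltransferases such as Shmt1 load onto folate, while Tk1 and Uck2 phosphorylate thymidine and uridine or cytidine taken up from outside. Cytarabine is an analog of deoxycytidine that enters through nucleoside transporters, is phosphorylated by the same kind of salvage kinase and stops DNA chains when it is built in, and leukemia cells in cycle depend on a steady nucleotide supply.

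In positions of GRCm38 with GENCODE M21, Cad lies at chr5:31054780-31078479 on the plus strand, Dhodh at chr8:109591343-109608673 on the minus strand, and Umps at chr16:33954782-33967038 on the minus strand. Ctps lies at chr4:120539868-120570276 on the minus strand, and its paralog Ctps2 at chrX:162901238-163032508 on the plus strand. Tyms is at chr5:30058202-30073617, Shmt1 at chr11:60788104-60811718, Tk1 at chr11:117815526-117826092 and Uck2 at chr1:167222883-167285320, all of them on the minus strand. The files give 1 value per gene symbol, so isoforms are not told apart. Tyms has a processed pseudogene, Tyms-ps, at chr10:87966847-87967761, which was listed at 0 to 0.0759 FPKM in the 6 libraries, against at least 20.4 FPKM for Tyms. How reads common to both copies were divided is not stated.

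Promoter windows from RefSeq on GRCm38.p6, each reaching from 250 bases before to 50 bases after a transcription start site, were matched for 8 of the 9 genes, all but Dhodh, in 11 windows. The 120 bases before the start are shown for Cad and Umps, which stand on either side of Dhodh in the pathway and whose ratio separated the groups, and for Tyms, whose window holds an E-box, the CACGTG motif bound by Myc with Max. They are written 5′ to 3′ on the strand of the gene, and capitals mark the E-box. No GENCODE exon of these genes lies inside them.
Cad, chr5:31054660-31054779, plus strand: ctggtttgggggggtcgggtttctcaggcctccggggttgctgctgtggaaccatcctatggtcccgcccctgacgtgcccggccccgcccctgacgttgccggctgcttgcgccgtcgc
Umps, chr16:33967039-33967158, minus strand: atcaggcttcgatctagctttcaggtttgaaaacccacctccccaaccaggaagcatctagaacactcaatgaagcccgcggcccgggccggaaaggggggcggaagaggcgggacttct
Tyms, chr5:30073626-30073745, minus strand: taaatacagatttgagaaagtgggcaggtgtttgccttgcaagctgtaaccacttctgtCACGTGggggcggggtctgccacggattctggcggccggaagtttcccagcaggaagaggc

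The E-box of Tyms begins 61 bases before the start site. CACGTG was found on either strand in 7.15% of all 32817 windows of this length, and of the 8 genes with a window only in that of Tyms. The letters CCAAT, searched on both strands and found in 37.4% of all windows, began 68 bases before a start of Ctps2, 47 bases before that of Shmt1 on the opposite strand, and just after that of Uck2. A set of E2F motifs (TTTCCCGC or TTTCGCGC or TTTGCCGC or TTTGGCGC, both strands) occurred in 2.26% of windows and in none of the matched ones. These matches describe the letters of the windows and no binding was measured. Bases beyond the windows, which end 50 bases after the start, were not searched, so motifs there are not counted.

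Levels are given in FPKM, read counts divided by transcript length and by the mapped total of the library, which can be compared between genes because length is divided out. Averaged over the 6 libraries, the order from highest to lowest level was Uck2 (89.1 FPKM), Tk1 (80.6), Ctps (71.1), Umps (63.9), Shmt1 (61.8), Cad (44.7), Tyms (24.5), Dhodh (14.3) and Ctps2 (6.94). From Uck2 down to Shmt1, the ranges of neighbours overlapped over the libraries, and within libraries the order changed: Uck2 was above Tk1 in 4 of the 6, Tk1 above Ctps in 5, Ctps above Umps in 5 and Umps above Shmt1 in 4. Shmt1 was above Cad in all 6 libraries, although the highest Cad value exceeded the lowest Shmt1 value. The ranges of Cad, Tyms, Dhodh and Ctps2 did not overlap with one another in that order. The highest library was 1.16 times the lowest for Ctps2 and 1.83 times for Cad, the extremes among the 9 genes. At the read totals inferred from the files, 11440000 to 18760000 reads, the members were covered by roughly 270 reads (Dhodh and Ctps2) to 6570 reads (Uck2) per library, which leaves a counting error of 1.45% to 6.14% at the lowest library of each gene. These intervals cover counting error only.

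Before the groups are compared, the make-up of the libraries needs stating. Epithelial genes of the colon, summed over the 12 of 14 listed markers in the files, reached 334 to 4812 FPKM in the cytarabine libraries and 24.9 to 2153 FPKM in the controls. Cytarabine 2, cytarabine 3 and control 1 held much colon transcript, and cytarabine 1, control 2 and control 3 held little. Smooth muscle markers ranged from 122 to 1165 FPKM against 24.3 to 953, and heart markers from 7.46 to 685 FPKM against 52.5 to 2518. The 8 neutrophil markers summed to 1433, 199 and 189 FPKM in cytarabine 1, 2 and 3. In control 1, 2 and 3 the sums were 1438, 2043 and 2004 FPKM. By this sum cytarabine 1 was level with control 1, and cytarabine 2 and 3 stood far below all others. Single markers differed: Retnlg (12.4 against 48.3 FPKM), Ltf, Mmp8 and Lcn2 were lower in cytarabine 1 than in control 1. S100a9 and Ngp were slightly lower there, and S100a8 and Camp higher. In 6 of the 8 markers every cytarabine library lay below every control, beside 12.9% of all genes tested. Of these markers, 7 of the 8 were lower at an unadjusted p under 0.05. Blood and leukemia cell markers summed to 528, 381 and 415 FPKM with cytarabine and 394, 495 and 488 FPKM in the controls, and were lower in every library with much colon transcript than in any with little. Erythroid markers summed to 13.8 to 109.8 FPKM against 16.9 to 26.7, B cell markers to 6.20 to 14.3 against 5.22 to 6.53, and macrophage markers to 15.5 to 56.9 against 12.8 to 150. In bulk RNA, fewer cells of a type and less RNA per cell cannot be told apart.

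**Figure D1:**
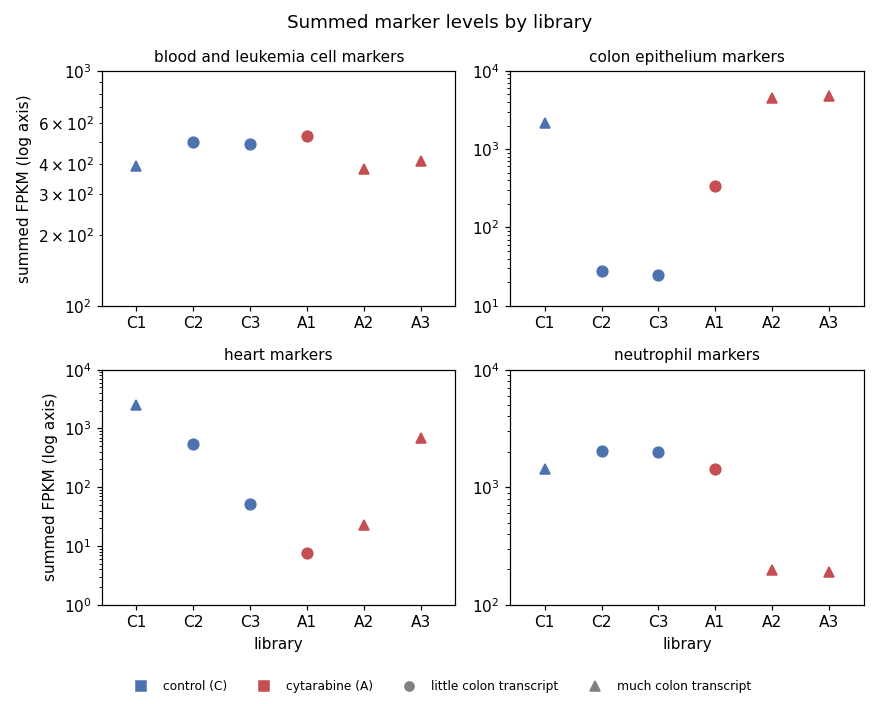
Summed FPKM (log axis) of marker genes for blood and leukemia cells, colon epithelium, heart and neutrophils in each library, with control libraries C1 to C3 in blue and cytarabine libraries A1 to A3 in red. Triangles are the 3 libraries with much colon transcript (C1, A2 and A3); blood markers lie between 381 and 528 FPKM, lowest in those 3 libraries, while colon markers run from 24.9 to 4812 FPKM.

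Markers of the labelled cell type were present in part. Ptprc, the pan-leukocyte CD45, stood at 284 to 386 FPKM, and Itga2, which encodes the CD49b used in the sort, at 7.79 to 13.3 FPKM. Flt3, a receptor of myeloid progenitors, was under 1 FPKM in every library, and Cd33 did not pass 2.12 FPKM. Of the same blood and leukemia cell list, Kit, Cebpa, Csf1r, Itgam, Runx1, Itga4 and Cd34 did not pass 7.72 FPKM in any library. Myb, at 9.23 to 16.7 FPKM, and Cd44, at 44.7 to 53.6 FPKM, were higher. Mpo stood at 71.1 FPKM in cytarabine 1, where it is part of the summed level given above, and at 2.33 to 12.3 FPKM elsewhere. Cd3g and Cd3e, subunits of the T cell receptor complex, reached 449 to 652 and 130 to 199 FPKM, while 8 of the 13 T and NK cell markers, among them Cd4, Cd8a and Ncr1, were under 1 FPKM in all libraries. Lck stood at 75.5 to 105 FPKM, Zap70 at 66.4 to 83.5 FPKM and Cd3d at 3.61 to 9.99 FPKM. The summed T and NK cell level was 737 to 978 FPKM with cytarabine and 860 to 1042 FPKM in the controls.

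The comparison asks how transcripts of the nucleotide-making enzymes differed between leukemia cells that remained after cytarabine and cells from control mice. Differences were fitted with limma on log2(FPKM + 1) over the 11703 genes whose mean reached 1 FPKM, and every log2 fold change below is cytarabine minus control on that scale, which understates changes of low genes. No gene passed an adjusted p of 0.05 (limma with Benjamini-Hochberg adjustment; 0.0% of the genes tested, smallest adjusted p 0.0551), so an unadjusted p under 0.05 is used as a description. All 9 members were tested, and 2 of them, Cad and Uck2, were lower at that threshold (22.2%), against 9.81% of all genes called lower, 7.6% called higher and 17.4% called in either direction. None of the 9 was called higher, and 5 of the 9 estimates lay below 0. Their median log2 fold change was -0.13, beside -0.0015 over all genes tested. Since the members were chosen with earlier results of these data known, the count describes them only.

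Cad, which opens the de novo route as carbamoyl phosphate synthetase, aspartate transcarbamylase and dihydroorotase in one, read 47.4, 32.7 and 31.9 FPKM in libraries 1, 2 and 3 of the cytarabine group, compared with 45.3, 52.5 and 58.5 FPKM in those of the control group. The means were 37.4 ± 8.71 and 52.1 ± 6.58 FPKM (SD, n = 3 per group), a ratio of 0.717. Cytarabine 2 and 3 lay below every control, whereas cytarabine 1 lay above control 1, so the groups overlapped. The log2 fold change was -0.48 (SE 0.18, 95% confidence interval -0.92 to -0.05, unadjusted p = 0.0356, adjusted p = 0.256). Both low libraries held much colon transcript. Among the libraries with little colon transcript the difference was -0.22 and among those with much it was -0.47, and with the colon markers as a covariate it was -0.19 with an unadjusted p of 0.183.

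Dhodh was measured at 15.6, 11.8 and 11.2 FPKM after cytarabine, compared with 15.5, 14.8 and 16.7 FPKM in controls, or 12.9 ± 2.37 against 15.7 ± 0.963 FPKM (SD, n = 3). Here too cytarabine 2 and 3 were the lowest libraries, and cytarabine 1 lay among the controls. The estimate was -0.28 (SE 0.13, interval -0.61 to 0.05, unadjusted p = 0.0823, adjusted p = 0.333). It was -0.02 among the libraries with little colon transcript and -0.40 among those with much.

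Umps, whose single protein joins orotate phosphoribosyltransferase and orotidylate decarboxylase, had 79.7, 57.4 and 56.4 FPKM after cytarabine, compared with 62.0, 57.5 and 70.5 FPKM in controls. Cytarabine 1 was the highest of all 6 libraries and the other cytarabine libraries the lowest. The group means nearly coincided, at 64.5 ± 13.2 and 63.3 ± 6.61 FPKM (SD, n = 3). The log2 fold change was 0.01 (SE 0.16, interval -0.37 to 0.40, unadjusted p = 0.939, adjusted p = 0.969), an interval that still holds changes of either sign.

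Of the CTP synthases, Ctps was read at 77.6, 59.4 and 59.9 FPKM after cytarabine, compared with 79.1, 71.7 and 78.9 FPKM in controls. Cytarabine 2 and 3 were again below every control and cytarabine 1 was not, and the log2 fold change was -0.23 (SE 0.12, interval -0.52 to 0.06, unadjusted p = 0.104, adjusted p = 0.357). It was 0.04 among the libraries with little colon transcript and -0.40 among those with much.

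Ctps2, by contrast in level the scarcest of the 9, gave 6.56, 6.57 and 6.64 FPKM after cytarabine, compared with 6.92, 7.59 and 7.36 FPKM in controls. Every cytarabine library lay below every control, and the cytarabine values differed among themselves by less than those of any other member, with means of 6.59 ± 0.0443 against 7.29 ± 0.337 FPKM (SD, n = 3). Counting error at the lowest library of Ctps2 was 6.14%, more than the spread of its cytarabine values. It also exceeded the gap between the closest pair, 6.64 FPKM in cytarabine 3 and 6.92 FPKM in control 1. The log2 fold change of -0.13 (SE 0.08, interval -0.32 to 0.06) did not pass (unadjusted p = 0.152, adjusted p = 0.4). It kept its sign on both sides of the colon division, at -0.17 with little and -0.06 with much. Groups without overlap, the lower one being cytarabine, were found for 2 of the 9 members, Ctps2 and Uck2 (22.2%), and for 12.9% of all genes tested, and groups without overlap in either direction for 23.8%.

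Neither enzyme of the thymidylate step passed in either direction. Tyms, thymidylate synthase, had 28.8, 22.6 and 24.9 FPKM after cytarabine, compared with 20.4, 24.9 and 25.6 FPKM in controls, and the groups overlapped widely. Its log2 fold change was 0.10 (SE 0.13, interval -0.21 to 0.41, unadjusted p = 0.449, adjusted p = 0.652), with 0.18 and 0.21 within the libraries with little and with much colon transcript. With the colon markers as a covariate Tyms was higher at an unadjusted p under 0.05.

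Shmt1, the cytosolic serine hydroxymethyltransferase, stood at 70.0, 62.3 and 59.1 FPKM after cytarabine, compared with 57.3, 57.0 and 65.3 FPKM in controls. All 3 cytarabine libraries exceeded controls 1 and 2, but only cytarabine 1 exceeded control 3. The log2 fold change was 0.09 (SE 0.09, interval -0.14 to 0.31, unadjusted p = 0.368, adjusted p = 0.59).

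Among the salvage kinases, Tk1, the cytosolic thymidine kinase of dividing cells, was read at 95.2, 89.2 and 70.7 FPKM after cytarabine, compared with 67.5, 79.7 and 81.3 FPKM in controls. Cytarabine 1 and 2 lay above every control and cytarabine 3 below all but control 1. The means were 85.0 ± 12.7 and 76.1 ± 7.58 FPKM (SD, n = 3), and the log2 fold change was 0.15 (SE 0.14, interval -0.18 to 0.48, unadjusted p = 0.307, adjusted p = 0.537). It was 0.24 and 0.23 within the libraries with little and with much colon transcript, and Tk1, like Tyms, was higher at an unadjusted p under 0.05 with the colon covariate.

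Uck2, the uridine-cytidine kinase that proliferating cells favour, gave 87.3, 77.2 and 79.1 FPKM after cytarabine, compared with 88.3, 100.6 and 101.9 FPKM in controls. Every cytarabine library lay below every control, the closest pair being cytarabine 1 and control 1. The means were 81.2 ± 5.35 and 96.9 ± 7.54 FPKM (SD, n = 3), a ratio of 0.838. The log2 fold change was -0.25 (SE 0.08, interval -0.46 to -0.05, unadjusted p = 0.0247, adjusted p = 0.23). It was -0.21 among the libraries with little colon transcript and -0.17 among those with much, and -0.12 with an unadjusted p of 0.121 once the colon markers entered as a covariate.

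The calls of both Cad and Uck2 rested on few libraries. Neither passed an unadjusted p of 0.05 when cytarabine 2, cytarabine 3, control 2 or control 3 was left out, so that 0 members were called in each of these fits, where 9.94% to 11.1% of all genes were. Leaving out control 1 kept both, with 18.3% of all genes called. Leaving out cytarabine 1 added Dhodh and Ctps, for 4 members, and the share over all genes was 34.8% in that fit. With the colon covariate, where 15.3% of all genes were called, the members called were Tyms and Tk1 in place of Cad and Uck2. Only Tk1 was called in the 3 libraries with little colon transcript, where it was higher and 11.2% of all genes were called. In the 3 with much, Cad, Dhodh and Ctps were called lower, beside 24.1% of all genes. In those fits one arm is a single library that is assumed to vary like the others.

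**Figure D2:**
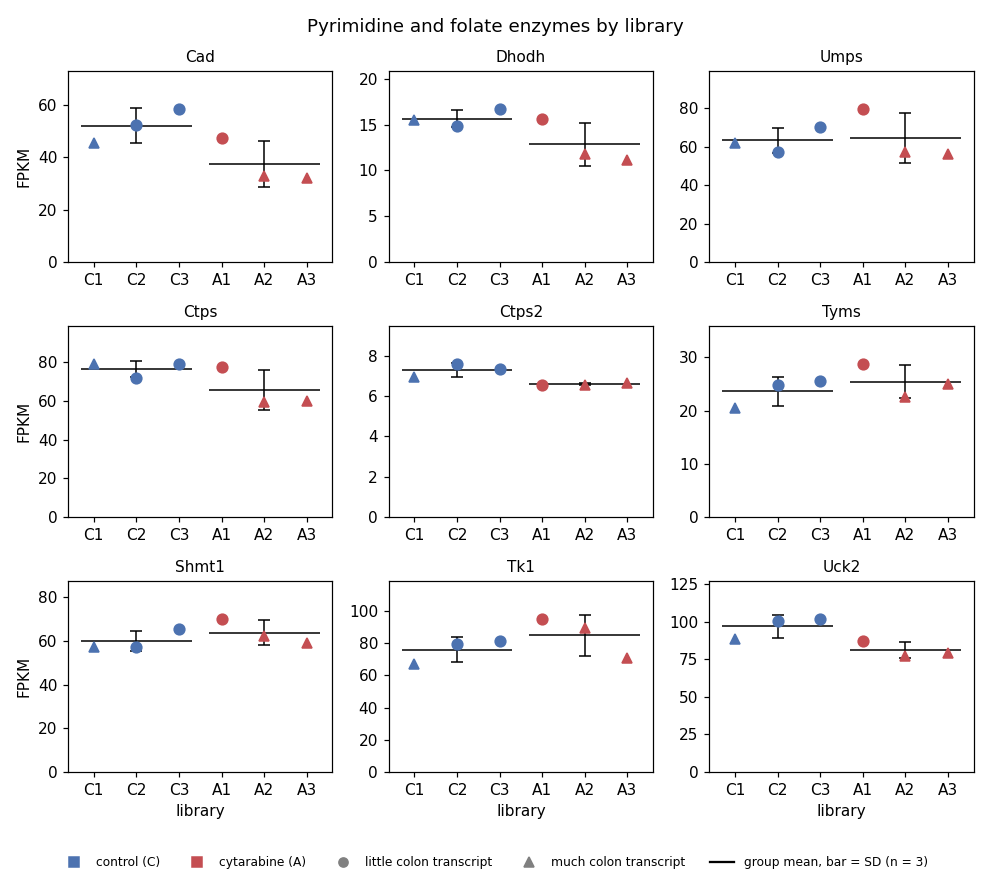
FPKM of the 9 enzymes in each library (linear axis from 0), with control libraries C1 to C3 in blue, cytarabine libraries A1 to A3 in red, and triangles for the libraries with much colon transcript. Lines are group means and bars SD (n = 3); only for Ctps2 and Uck2 do all cytarabine points lie below all control points, and A1 sits apart from A2 and A3 for Cad, Dhodh, Umps and Ctps.

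As a description of how alike the members varied across libraries, the root mean square difference of centred log2(FPKM + 1) between members over the 6 libraries was smallest for Dhodh and Ctps, at 0.05, and next smallest for Ctps2 and Uck2, at 0.0912. Tyms and Shmt1 differed by 0.104, and Cad and Tk1 by 0.344, the most of any pair. Genes that vary little lie near one another by this measure, so a small value alone does not show a shared pattern. The SD of log2(FPKM + 1) over the 6 libraries was 0.0793 for Ctps2 and 0.115 for Shmt1. These are about as large as their differences from Uck2 and Tyms. For Dhodh and Ctps the SDs were 0.221 and 0.192, well above their difference. Over all tested genes, the pattern nearest to that of Tk1 was that of E2f1, a transcription factor of the G1 to S transition, at 0.0162, followed by Dnajc15 at 0.0348. The nearest to Cad were Tnk2 and Adpgk (0.0475 and 0.052), and the nearest to Uck2 were Arl6ip1 and Rbm42 (both 0.0195). The points share the same 6 libraries, which also differ in colon, heart and neutrophil transcript, and the median difference of a tested gene from a member was 0.168 to 0.333.

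A ratio of 2 genes within a library does not depend on the library's scaling. Each of 6 ratios was compared by a two-sided exact permutation test over the 20 assignments of the libraries, which cannot give a p below 0.1, so none could pass 0.05 in this design. In 3 of the 6 the groups did not overlap, and 5 of the 6 are described here. The share without overlap was 23.8% over single genes, and it was not computed over other gene pairs. The pairs were chosen with earlier results of these data known, and Uck2 and Shmt2 did not overlap on their own, so the count describes these ratios only.

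The ratio of Cad to Umps was 0.595, 0.570 and 0.566 with cytarabine and 0.731, 0.913 and 0.829 in the controls, so that every cytarabine library was lower. The difference in log2 ratio was -0.51, a fold of 0.703 (exact permutation p = 0.1, adjusted over the 6 ratios 0.2). It was -0.55 within the libraries with little colon transcript and -0.36 within those with much. Unlike Cad alone, the ratio therefore put cytarabine 1 with the other cytarabine libraries, and there both genes entered. Among the libraries with little colon transcript, the log2 difference was -0.22 for Cad and 0.32 for Umps. In cytarabine 1, Umps was the highest of all libraries, at 79.7 FPKM. Cad, at 47.4 FPKM, was above control 1, at 45.3 FPKM, and below control 2 and 3, at 52.5 and 58.5 FPKM. In cytarabine 2 and 3, Cad was below every control, at 32.7 and 31.9 FPKM.

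The ratio of Shmt1 to Shmt2, the cytosolic to the mitochondrial serine hydroxymethyltransferase, was 0.398, 0.408 and 0.472 with cytarabine and 0.269, 0.235 and 0.253 in the controls. This was a difference of 0.75 in log2 ratio, or 1.69-fold (exact permutation p = 0.1, adjusted 0.2), and it was 0.71 on either side of the colon division. The numerator did not pass its own test and Shmt2 was lower, as given below.

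Uck2 over Uck1, its more widely expressed paralog, was 1.70, 1.48 and 1.65 with cytarabine and 2.05, 2.10 and 2.10 in the controls. The log2 difference was -0.37, a fold of 0.773 (exact permutation p = 0.1, adjusted 0.2), with -0.30 and -0.39 within the libraries with little and with much colon transcript. Uck1 itself had a log2 fold change of 0.11 (unadjusted p = 0.167).

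The ratios of Ctps to Ctps2 and of Tk1 to Tk2 overlapped between the groups. Ctps was 9.03 to 11.8 times Ctps2 with cytarabine and 9.45 to 11.4 times in the controls (log2 difference -0.09, exact permutation p = 0.6, adjusted 0.72). Tk1 over Tk2, the mitochondrial thymidine kinase, ran from 14.1 to 24.2 against 15.9 to 20.6 (log2 difference -0.04, exact permutation p = 1.0).

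**Figure D3:**
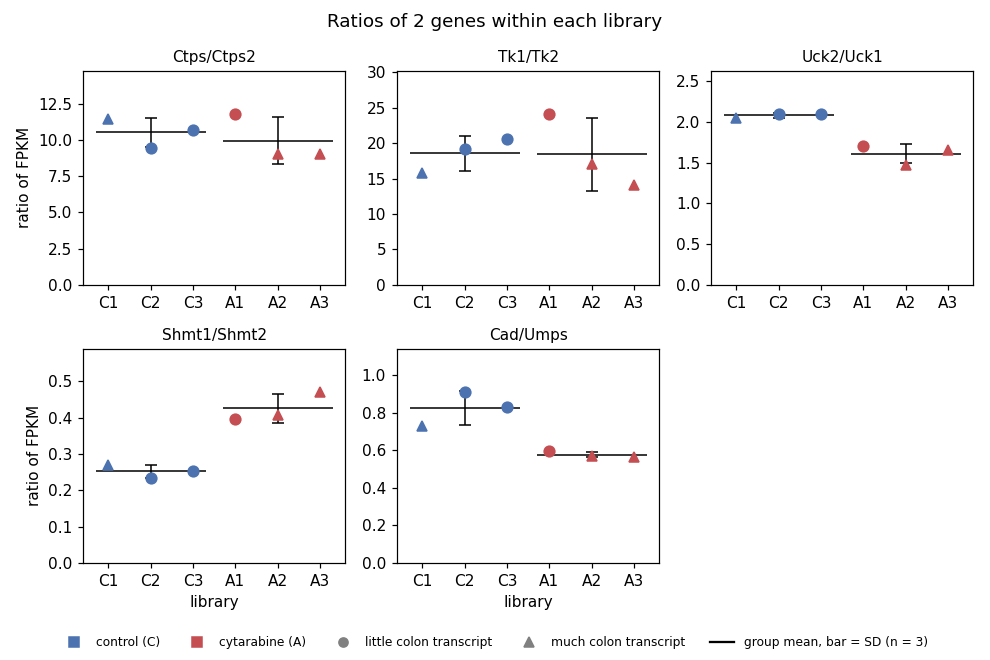
Ratio of the FPKM values of 2 genes within each library (linear axis from 0), with control libraries C1 to C3 in blue and cytarabine libraries A1 to A3 in red, and lines and bars for group mean and SD (n = 3). The groups are apart for Uck2/Uck1, Shmt1/Shmt2 and Cad/Umps, with every A point on one side of every C point, and overlap for Ctps/Ctps2 and Tk1/Tk2.

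The wider folate cycle was described from 25 listed genes, of which 21 were tested. At an unadjusted p under 0.05, 5 were lower with cytarabine (23.8%, beside 9.81% of all genes) and none was higher, and the list's median was -0.12. The 5 lower genes were Mthfd2, Fpgs, Shmt2, Slc19a1 and Gcsh, and none passed an adjusted p of 0.05. In each of them all cytarabine libraries lay below all controls.

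Mthfd2, the mitochondrial methylenetetrahydrofolate dehydrogenase of growing cells, stood at 102, 86.5 and 77.4 FPKM after cytarabine, compared with 169, 143 and 154 FPKM in controls. Its log2 fold change of -0.81 (SE 0.12, unadjusted p = 0.000593, adjusted p = 0.131) came from a ratio of means of 0.572. The difference was -0.53 among the libraries with little colon transcript and -1.03 among those with much.

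Fpgs, which adds glutamates to folates and so retains them in the cell, had 50.8, 32.2 and 29.0 FPKM against 70.2, 72.5 and 76.6 FPKM (log2 fold change -0.99, SE 0.21, unadjusted p = 0.00324, adjusted p = 0.151). Shmt2, which passes serine carbon to folate in mitochondria, had 176, 153 and 125 FPKM against 213, 243 and 258 FPKM (-0.66, SE 0.14, unadjusted p = 0.00372, adjusted p = 0.152). Cytarabine 1 was the library nearest to the controls for all 3 of these genes. They were named for having the smallest p of the list.

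Slc19a1, the reduced folate carrier, was at 14.6, 10.01 and 8.55 FPKM against 17.3, 15.5 and 18.5 FPKM (-0.61, SE 0.19, unadjusted p = 0.0194), and Gcsh, a part of the glycine cleavage system, at 81.7, 71.1 and 69.4 against 83.1, 84.4 and 88.7 FPKM (-0.21, SE 0.08, unadjusted p = 0.0419). With the colon covariate neither passed, at -0.44 (unadjusted p = 0.104) for Slc19a1 and -0.11 (unadjusted p = 0.223) for Gcsh. These last genes were named after their values were seen.

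Of 13 genes for pyrimidine kinases, ribonucleotide reductase and dUTP handling, all were tested, 1 was higher and 1 lower at an unadjusted p under 0.05 (7.69% each, near the 7.6% and 9.81% of all genes), and their median was 0.02. The higher one was Rrm2, the small subunit of ribonucleotide reductase, with 287, 252 and 259.9 FPKM against 164, 201 and 206 FPKM (log2 fold change 0.49, SE 0.11, unadjusted p = 0.00424, adjusted p = 0.155). The lower one was Dctd, the dCMP deaminase that feeds the thymidylate step, with 8.91, 5.96 and 6.28 FPKM against 11.1, 9.48 and 10.9 FPKM (-0.53, SE 0.16, unadjusted p = 0.0158, adjusted p = 0.203). Neither gene's groups overlapped. Dctd did not pass with the colon covariate (-0.43, unadjusted p = 0.0771). Rrm2 was 0.50 and 0.64 higher within the libraries with little and with much colon transcript, and the differences of Dctd were -0.17 and -0.76.

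Of 25 genes for pyrimidine salvage, transport and breakdown, 19 were tested. At an unadjusted p under 0.05, 3 were higher (15.8%, beside 7.6% of all genes) and 2 lower (10.5%, near the 9.81% of all genes). Their median was 0.08. Dck, the deoxycytidine kinase that gives cytarabine its first phosphate, had 40.0, 38.1 and 37.5 FPKM against 27.6, 30.2 and 33.9 FPKM (0.33, SE 0.09, unadjusted p = 0.0103, adjusted p = 0.183). Slc29a1, an equilibrative nucleoside transporter that carries the drug into cells, had 29.6, 27.9 and 28.7 FPKM against 30.6, 38.1 and 34.2 FPKM (-0.24, SE 0.09, unadjusted p = 0.0379, adjusted p = 0.263). In both genes the groups did not overlap. The call of Slc29a1 held in 1 of 6 fits with 1 library left out and in 6 of 13 others, and with the colon covariate its value was -0.13 (unadjusted p = 0.213).

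Uprt, named for uracil phosphoribosyltransferase, was also lower without overlap, at 8.33, 7.92 and 8.57 FPKM against 9.82, 10.8 and 11.6 FPKM (-0.34, SE 0.09, unadjusted p = 0.00788). Samhd1, a dNTP hydrolase, was higher at 49.2, 46.6 and 41.1 against 37.2, 38.0 and 39.8 FPKM (0.24, SE 0.08, unadjusted p = 0.0261). The ectonucleotidase Nt5e had 4.40, 11.5 and 13.2 FPKM after cytarabine, compared with 5.29, 1.48 and 1.10 FPKM in controls (1.63, SE 0.55, unadjusted p = 0.0264), with its highest values in the libraries with much colon transcript. With the colon covariate the value of Nt5e was 0.58 (unadjusted p = 0.0129). The calls of Samhd1 and Nt5e each held in 2 of 6 fits with 1 library left out, and that of Uprt in all 6. Samhd1 and Nt5e did not pass in the limma fit with the replicate block (unadjusted p = 0.0843 and 0.0837).

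**Figure D4:**
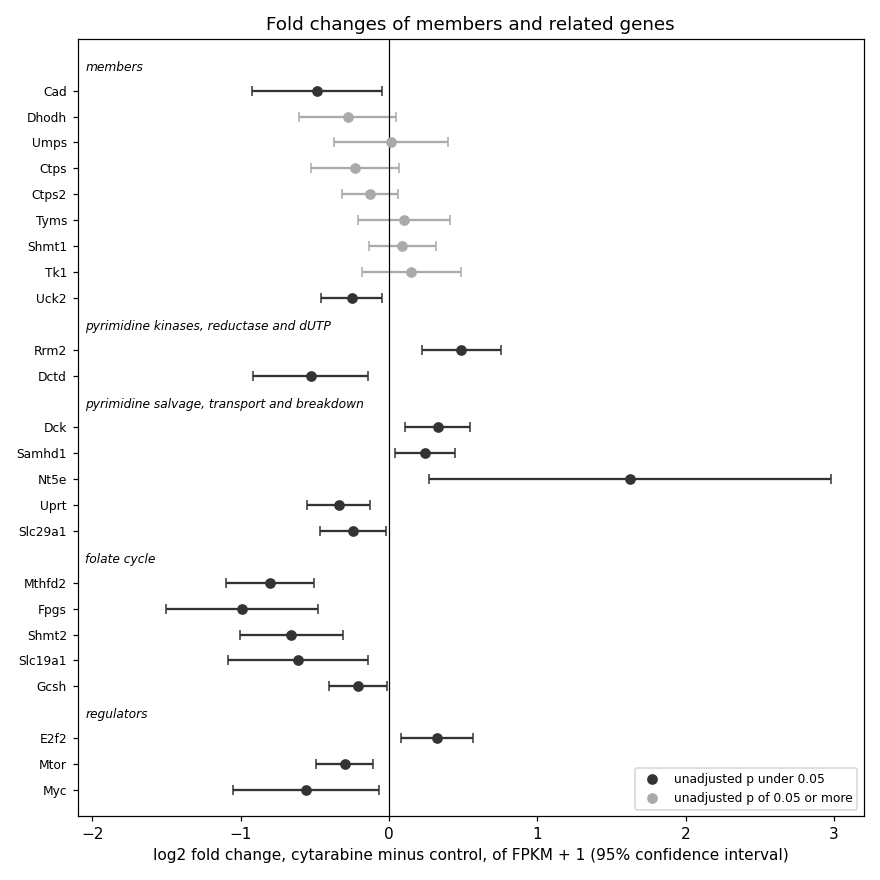
Log2 fold change of FPKM + 1, cytarabine minus control, with its 95% confidence interval for the 9 members and the named genes of related lists. Dark points passed an unadjusted p of 0.05; among the members these are Cad (-0.48) and Uck2 (-0.25), and none of the genes shown passed an adjusted p of 0.05.

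Among 15 regulators of growth and S phase genes, all tested, 1 was higher (6.67%) and 2 lower (13.3%) at the unadjusted threshold. Over all genes tested these shares were 7.6% and 9.81%, so the counts describe these genes only. Myc, a transcription factor of growth genes that binds E-boxes, stood at 33.4, 27.1 and 20.9 FPKM after cytarabine, compared with 36.5, 35.6 and 48.5 FPKM in controls, without overlap (-0.56, SE 0.20, unadjusted p = 0.0322, adjusted p = 0.248). Its call was lost with the colon covariate (-0.33, unadjusted p = 0.179), in the libraries with little colon transcript (-0.31, unadjusted p = 0.249) and in 3 of 6 fits with 1 library left out. Mtor, the kinase of the growth-sensing complexes, had 8.41, 7.80 and 7.95 FPKM against 9.92, 9.68 and 10.9 FPKM (-0.30, SE 0.08, unadjusted p = 0.00932, adjusted p = 0.182), and -0.25 with an unadjusted p of 0.0507 with the colon covariate. E2f2, an activator of S phase genes, had 12.8, 12.1 and 11.6 FPKM against 8.38, 9.94 and 10.3 FPKM (0.32, SE 0.10, unadjusted p = 0.0166, adjusted p = 0.206).

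The lists of the 2 cell cycle phases had medians of opposite sign. Of 29 genes of S phase and replication, 6 were higher (20.7%, beside 7.6% of all genes) and none lower, with a median of 0.13 and 23 estimates above 0. Of 20 genes of G2 and mitosis, 9 were lower (45.0%, beside 9.81% of all genes) and none higher, with a median of -0.24. Of the members, Tk1 and Tyms, which are transcribed mainly around S phase, had estimates of 0.15 and 0.10 that did not pass. The neutrophil markers given above also differed between the groups, and their part in these differences was not tested.

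**Figure D5:**
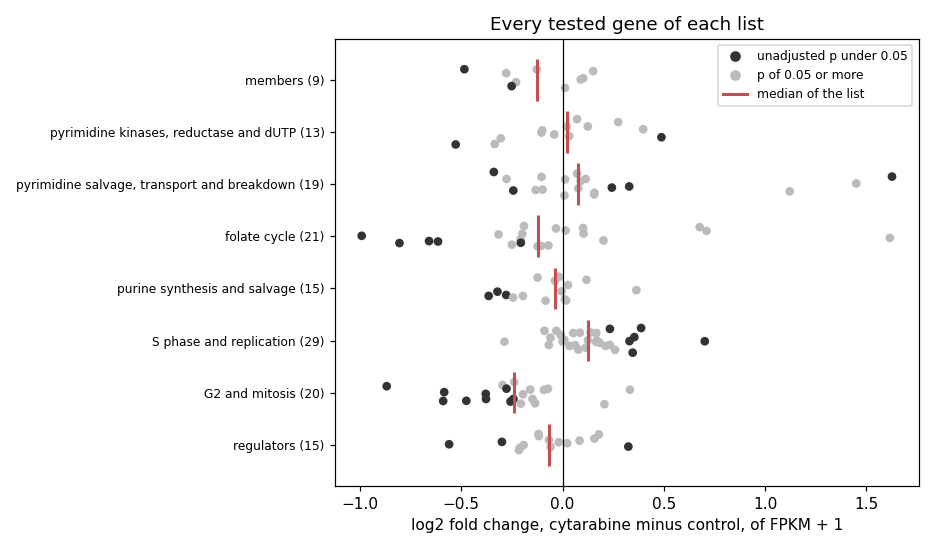
Log2 fold change of FPKM + 1, cytarabine minus control, for every tested gene of the members and of 7 related lists, with the number tested in parentheses and the list median as a red bar. Dark points passed an unadjusted p of 0.05; medians run from -0.24 for G2 and mitosis to 0.13 for S phase and replication.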

How the data were processed

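The authors sequenced TruSeq stranded mRNA libraries in 75-base single-end mode on an Illumina HiSeq instrument and mapped the reads to mm10 with TopHat2 2.0.13, Bowtie2 2.2.3 and SAMtools 0.1.19. The deposited values are FPKM per gene symbol from Cufflinks 2.2.1, so length and library total were already divided out. Which annotation and which Cufflinks options were used is not given in the sources used here.

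The sample labels gave each library its group and number. Each library came from a different mouse. The limma p-values set a group difference against the spread among libraries of a group, moderated over all genes. That spread holds differences between mice together with those in colon, heart and other tissue transcript. A linear model with empirical Bayes moderation and a mean-variance trend was fitted by limma 3.58.1 (R 4.3.3) to log2(FPKM + 1) of the 11703 genes whose mean reached 1 FPKM. Its tests were two-sided, p-values were adjusted over all genes by the Benjamini-Hochberg method, and the step was tested on simulated data. A test on counts was not run, since FPKM are not counts. Ratios were compared by exact permutation tests with adjustment over the 6 ratios, of which 1 is not reported here. Low FPKM values rise in steps of single reads, and these steps, in 3607 genes for which GENCODE M21 has 1 transcript, gave approximate read totals under an assumed fragment length of 200 bases. Only 58.7% to 67.8% of the low values lay within 0.05 of a whole read, so whole reads were not recovered, and the totals were 11440000 to 18760000 reads. At 3 reads on a transcript of 2000 bases they give 0.08 to 0.131 FPKM.

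The members, lists and ratios were chosen with earlier results of these data known. Named genes are the 9 members, the partners of the ratios and up to 3 genes per direction and list with the smallest unadjusted p under 0.05, plus, for each member, the 2 genes of most similar pattern, of which some are given. Libraries were divided into those with much and with little colon transcript by the summed colon markers. The other settings tried were a pseudocount of 0.1, no filter or a mean of at least 5 FPKM, equal sums, median-of-ratios factors, quantile normalization, eBayes without trend or with robust trend, a colon covariate, a replicate block and leaving out each library. Leaving out tissue markers, and fitting either side of the colon division alone, were added after the data were seen. Plots were made in Python 3.11.15 (matplotlib 3.10.9). Imaging and survival data were not analysed here.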

Additional observations from a re-analysis of the deposited data

How the results depend on the processing

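Of 11703 genes, 2038 passed an unadjusted p of 0.05. This count was 994 with the replicate block, 1203 in the libraries with little and 2908 in those with much colon transcript alone, and it ranged from 1176 (without control 3) to 4111 (without cytarabine 1) when 1 library was left out. The members called, 2 with all libraries, were 0 with the block, 1 in the libraries with little and 3 in those with much colon transcript, and 0 to 4 with 1 library left out. With the colon covariate they were 2 other genes, Tyms and Tk1. The adjusted threshold was passed by 0 genes, but by 1 with a pseudocount of 0.1, 2 without trend, 1 with robust trend, 14 in the libraries with little and 14 in those with much colon transcript, and 0 to 6 with 1 library left out. The libraries of one number came from different mice, and their deviations from the group means had correlations of -0.709, -0.247 and -0.594. Libraries of unlike number had correlations from -0.313 to 0.628. Centring within groups of 3 forces some of these values below 0, so they cannot show whether libraries of one number share a batch. The block leaves the ratio differences as they are, and its sign-flip p cannot go below 0.25. Without 1 library the Tk1/Tk2 difference ranged from -0.25 to 0.14, Cad/Umps from -0.59 to -0.43, Shmt1/Shmt2 from 0.68 to 0.80 and Uck2/Uck1 from -0.41 to -0.31. The Umps estimate ranged from -0.15 to 0.10 without 1 library and was -0.12 in the libraries with much colon transcript. Ctps was 0.044 and Tk2 -0.0313 in those with little, and Tk2 was -0.0283 with quantile normalization. Tk2 had no value under the filter of 5 FPKM. Over 36 named genes, 169 fits without 1 library and 405 others left direction and side of the threshold as they were, 42 and 49 lost the call, 2 and 9 gained it, and 3 and 4 changed sign. The cause of these changes was not tested. At the inferred totals a gene under about 0.1 FPKM rests on about 3 reads or fewer, which touches none of the members.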

Other observations

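Purine synthesis, which draws on the same ribose phosphate and folate pools, was described from 15 listed genes, all tested, of which 3 were lower at an unadjusted p under 0.05 (beside 9.81% of all genes), none was higher and none passed the adjusted threshold, with a median of -0.04. Impdh1, an IMP dehydrogenase of the guanine branch, read 10.4, 8.73 and 8.40 FPKM in libraries 1, 2 and 3 of the cytarabine group, compared with 11.3, 11.9 and 13.01 FPKM in controls, without overlap (limma log2 fold change -0.36, SE 0.10, unadjusted p = 0.0128, adjusted p = 0.192). Prps1, which makes phosphoribosyl pyrophosphate, had 67.4, 54.2 and 54.2 FPKM against 65.4, 71.5 and 76.1 FPKM (-0.28, SE 0.11, unadjusted p = 0.0462), and Atic, the enzyme of the last steps to IMP, had 173, 131 and 129 FPKM against 169, 177 and 191 FPKM (-0.32, SE 0.13, unadjusted p = 0.0492). In the last pair of genes only cytarabine 1 overlapped with the controls, as for Cad. With the colon covariate none of the 3 passed, at -0.23 (unadjusted p = 0.0721) for Impdh1, -0.11 (unadjusted p = 0.267) for Prps1 and -0.14 (unadjusted p = 0.287) for Atic.

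Of the S phase list, Ccne2, a cyclin E, was higher in every cytarabine library than in any control, at 11.2, 9.41 and 9.18 FPKM against 5.43, 5.35 and 6.37 FPKM (0.70, SE 0.11, unadjusted p = 0.000876, adjusted p = 0.136). Slbp, the histone stem-loop binding protein, and Rfc3, a clamp loader subunit, had log2 fold changes of 0.33 (unadjusted p = 0.00574) and 0.35 (unadjusted p = 0.0128). Of the G2 and mitosis list, Plk1, a mitotic kinase, had 28.0, 26.6 and 23.2 FPKM against 34.1, 42.8 and 41.5 FPKM (-0.58, SE 0.12, unadjusted p = 0.00263, adjusted p = 0.149). Ube2c, the ubiquitin carrier of the anaphase-promoting complex, and Cenpf, a kinetochore protein, had log2 fold changes of -0.87 (unadjusted p = 0.0032) and -0.59 (unadjusted p = 0.00753). Differences of these 6 genes had the same sign within the libraries with little and with much colon transcript.

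The remaining nearest patterns, by root mean square difference of centred log2(FPKM + 1) over the 6 libraries, were Plagl1 (0.0255) for Dhodh, Mrps34 (0.0334) for Umps, Tmc6 (0.019) for Ctps, Fam92a (0.0201) for Ctps2, Sh2b3 (0.0258) for Tyms and Mfap1b (0.0187) for Shmt1.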
